A study of Rattus norvegicus with 94 samples.

Results

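The second day of the liver response to valproate was examined by setting the treated livers taken at 48 h against the treated livers taken at 24 h. The comparison used 7 of the 94 arrays of the series, 4 from animals killed 48 h after dosing and 3 from animals killed 24 h after dosing, chosen by their titles, and left out the arrays of pooled RNA. The question was which parts of the response still grew on day 2, which had reached a level that held, and which had faded.

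The series measured liver RNA of male SD rats after a single dose of clofibrate, di(2-ethylhexyl) phthalate (DEHP) or valproate on Affymetrix RG_U34A arrays, which hold 8799 probe sets. The animals behind the 7 arrays had received 2000 mg/kg sodium valproate (VPA) in distilled water, 1 animal per array. For distance from the untreated state, 10 vehicle arrays of the valproate study were used (distilled water only, 5 at 48 h and 5 at 168 h), since no vehicle group was taken at 24 h. The VPA arrays at 4 h (3) and 168 h (4) are given as context, and DEHP-treated animals (20 g/kg in distilled water, 5 at 48 h and 3 at 24 h) served to ask whether a day 2 change differed from that after another compound.

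Valproate is an anticonvulsant drug and a short branched-chain fatty acid. The liver activates it to a coenzyme A ester, which draws on the same coenzyme A and carnitine that mitochondria need to burn fatty acids, and the drug is known for fat droplets and loss of mitochondrial function in liver. It also inhibits histone deacetylases, and in rodents it switches on genes of the fatty acid receptor PPARalpha, which code for peroxisomal and mitochondrial beta-oxidation.

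Values are MAS 5.0 signals, for which the authors set a global scaling target of 1500. Signals under 150 were set to 150 before logs were taken, and 4269 probe sets whose mean reached 500 in at least 1 group were tested. Changes are log2 differences of 48 h minus 24 h ± SE from limma, and a probe set is said to have risen or fallen where the Benjamini-Hochberg adjusted p was under 0.05. Folds are ratios of geometric means, and where arrays of the lower group lay at 150 the fold is a lower bound and is written as at least that fold. The p-values rest on the spread within groups of the 24 arrays in the fit, and the number of arrays limits precision. Signal of 1 probe set is not compared with that of another, and vehicle ranges given beside genes are those of the 5 vehicle livers at 48 h.

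The number of calls between the days depended on 1 of the 24 h arrays, though these arrays correlated with each other at 0.9636 to 0.9642. The spread of each array around the mean of the 168 h vehicle arrays, taken as the SD of log2 ratios over the tested probe sets, was 0.694 in VPA 24 h replicate 1, against 0.755 and 0.766 in the other 24 h arrays. Without that array the number of probe sets called between 48 h and 24 h was 37 in place of 166. Without VPA 48 h replicate 1 it was 87, and without any other single array of the 7 it was 121 to 165. All 166 kept their direction without VPA 24 h replicate 1, and their median change was 0.80 in place of 0.90 on the log2 scale. The 166 had been called with the remaining arrays in the fit, so a kept direction was largely fixed and is a description only. For genes called between the days the adjusted p without that array is therefore given, and for gene groups with calls the count without it. On the 2 scan days that held arrays of both groups, all 166 had the same direction within each day. One day held 1 array of each group, and the other held 3 at 48 h and 1 at 24 h. The 166 were called from these same arrays, so this agreement was largely fixed in advance. VPA 24 h replicate 3 was alone on its scan day. With scan day as a fixed block 133 were called, 97 of them shared with the 166, and as a random block 175, with 166 shared. The log2 ratio of 3' to 5' control signal lay between 0.18 and 0.38 at 48 h and between 0.19 and 0.39 at 24 h.

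The profile as a whole lay farther from vehicle at 48 h than at 24 h. The SD around vehicle was 0.859, 0.885, 0.840 and 0.869 in the 48 h arrays, against 0.694, 0.755 and 0.766 in the 24 h arrays, and the groups did not overlap. The means were 0.863 ± 0.0186 (SD, n = 4) at 48 h and 0.738 ± 0.0390 (SD, n = 3) at 24 h. An exact permutation test over the 7 arrays, with the smaller tail doubled, gave a two-sided p of 0.0571. This is the smallest value that the doubling allows with 35 splits. At 4 h the measure was 0.518 to 0.669, and at 168 h it was 0.342 to 0.426, which overlapped the 0.350 to 0.480 of the 48 h vehicle arrays.

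**Figure D1:**
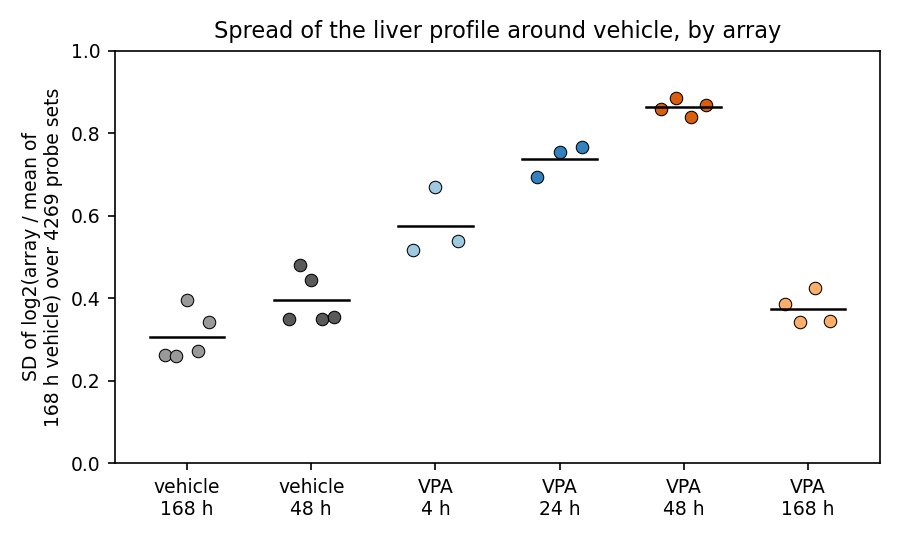
Spread of the liver profile around the mean of the 168 h vehicle arrays, as the SD of log2 ratios over 4269 probe sets (y axis, log2 units), for each array of the VPA and vehicle groups (x axis). Points are arrays and bars are group means. The 4 arrays of VPA 48 h, at 0.840 to 0.885, lie above the 3 arrays of VPA 24 h, at 0.694 to 0.766, and VPA 168 h is back among the vehicle arrays.

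The vehicle groups at 168 h and 48 h did not differ in any of 4269 probe sets after adjustment (0.00% by limma, and 186 or 4.36% at an unadjusted p under 0.05). Against vehicle, 1695 probe sets (39.7%) differed at 48 h and 1558 (36.5%) at 24 h. Of these, 911 were higher and 784 lower at 48 h, and 891 higher and 667 lower at 24 h, while with arrays centred on their medians there were 801 higher and 918 lower at 48 h and 690 higher and 934 lower at 24 h. Directly between the 2 days 166 of 4269 probe sets differed (3.89%), 77 higher at 48 h (1.80%) and 89 lower at 48 h (2.08%). With arrays centred on their medians the split was 88 higher and 66 lower. At an unadjusted p under 0.05 there were 643 (15.1%), and the arrays of the 2 days did not overlap for 559 (13.1%). The 166 stood for 109 named genes, 49 higher and 60 lower. Of the 166, 142 lay farther from vehicle at 48 h than at 24 h (85.5%, against 56.1% of all probe sets tested), 68 of the 77 that rose and 74 of the 89 that fell. In 93 of these 142 the 24 h arrays still overlapped the vehicle arrays, and in 49 they all lay beyond them. The other 24 of the 166 lay closer to vehicle at 48 h, and 22 of them overlapped the vehicle arrays by then. The 24 h and 48 h arrays stand on both sides of these counts, so the split is a description.

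**Figure D2:**
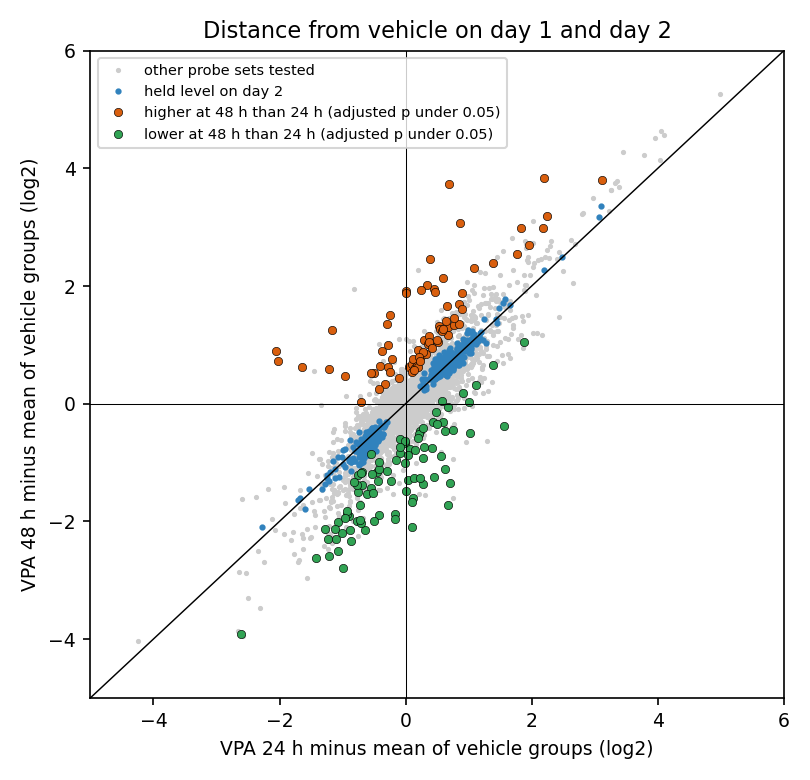
Distance from the mean of the vehicle groups at 48 h (y axis, log2) against that at 24 h (x axis, log2) for each of the 4269 probe sets tested. The diagonal marks equal distance. Of the 166 coloured by a call, 142 lie farther from 0 at 48 h, and the blue points mark 381 probe sets that held their level.

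Fabp3 and Acat1, of fatty acid binding and ketone body synthesis, were among the genes that still rose on day 2. Fabp3, the heart-type fatty acid binding protein, had signals of 1887, 1867, 2642 and 2392 in the 48 h livers, against 118, 237 and 515 in the 24 h livers. The groups did not overlap, and the vehicle arrays at 48 h lay at 94.9 to 192. Fabp3 was at least 8.24-fold higher at 48 h (3.04 ± 0.32, adjusted p = 6.32e-06, limma), the largest rise among the genes named by the rule, and the change was 2.64 without VPA 24 h replicate 1 (adjusted p = 0.000106). Its signal at 168 h averaged 161, near the vehicle level. Acat1, the mitochondrial thiolase that makes acetoacetyl-CoA for ketone bodies, had 16676, 17285, 14888 and 14840.4 at 48 h, against 9654, 11442 and 6799 at 24 h (0.81 ± 0.16, adjusted p = 0.00543), and 0.85 without that array (adjusted p = 0.0262). It was the only one called of 2 ketogenesis genes tested. In the list of fatty acid hydroxylation, binding, activation and thioesterase genes 2 of 19 rose (Fabp3 and Acot1) and 1 fell (Acsl3), beside 1.78% of all named genes that rose and 1.75% that fell when each gene is counted once. Without VPA 24 h replicate 1 the list had 1 rise and 0 falls, and Acsl3, an acyl-CoA synthetase, had an adjusted p of 0.295. Acot1, a cytosolic acyl-CoA thioesterase, had 26811, 26846, 18572 and 39585 at 48 h and 18179, 16001 and 15454 at 24 h (0.71 ± 0.17, adjusted p = 0.019), and its adjusted p was 0.0675 without VPA 24 h replicate 1. In vehicle livers at 48 h Acot1 gave 25.2 to 163.

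Most mitochondrial beta-oxidation genes were already higher than vehicle on day 1. Of 18 mitochondrial beta-oxidation and carnitine shuttle genes, 14 were higher and 1 lower than vehicle at 48 h, and 11 were higher and 2 lower at 24 h. Of all 2578 named genes, 528 were higher and 459 lower than vehicle at 48 h, and 510 higher and 397 lower at 24 h. None of the 18 was called between the 2 days by the probe set of highest signal. Their median change from 24 h to 48 h was 0.22, with 16 of 18 above 0, and the median over all named genes was -0.02. A probe set of Cpt1b, of the carnitine shuttle, that was not among those counted rose by 0.52 ± 0.15 (adjusted p = 0.0471). Its adjusted p was 0.157 without VPA 24 h replicate 1. Of 14 peroxisomal genes, 7 were higher than vehicle at 48 h and 6 at 24 h. Beside 1.78% of all named genes that rose and 1.75% that fell, 0 of the 14 fell and 1 rose between the days. That was Pex11a, a peroxisome proliferation factor, with 9131, 7039, 7944 and 5552 at 48 h against 4283, 3962 and 5454 at 24 h (0.69 ± 0.19, adjusted p = 0.0454). Without VPA 24 h replicate 1 its adjusted p was 0.208. Vehicle livers had 373 to 571, so most of the distance had been covered by 24 h (3.81 at 48 h and 3.12 at 24 h, log2 against the mean of the vehicle groups).

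A level counted as held where all arrays of both days lay on the same side of all 10 vehicle arrays and the 95% interval of the change lay within 1.5-fold either way. This was so for 381 probe sets (8.92% of those tested), 212 above vehicle and 169 below (151 and 209 with arrays centred on their medians). Of the 18 mitochondrial beta-oxidation genes 3 met this limit, and of the 14 peroxisomal genes 2. The 381 were part of the 717 that were beyond vehicle on both days. For 286 of the 717 the interval was wider than that limit, so no statement is made of them. Ech1, which shifts double bonds of fatty acids in peroxisomes and mitochondria, had 26891, 32345, 29734 and 29546 at 48 h and 23995, 23957 and 26708 at 24 h, against 2454 to 3170.2 in 48 h vehicle livers (change from 24 h 0.25 ± 0.15). Cyp4a1, the fatty acid omega-hydroxylase, had 29754, 33477, 26177 and 36734 at 48 h and 29132, 31952 and 31828 at 24 h (0.02 ± 0.23). The arrays of the 2 days overlapped for Cyp4a1, and vehicle livers at 48 h had 4741 to 7819. Eci1, the mitochondrial enoyl-CoA isomerase, Abcd3, a peroxisomal fatty acyl-CoA transporter, Acot7, an acyl-CoA thioesterase, Aco1, the cytosolic aconitase and iron regulatory protein, and Bex3 and Nudc also held above vehicle, with changes between 0.02 and 0.20. Held below vehicle were Hao2, a peroxisomal hydroxyacid oxidase, with 5905, 4047, 4333 and 3600.2 at 48 h and 3969, 4741 and 3053 at 24 h, against 15193 to 19705 in 48 h vehicle livers (0.19 ± 0.16). Pcyt2 of phosphatidylethanolamine synthesis, Glul, the glutamine synthetase, the glutathione transferases Gstt1 and Gstt2, the carboxylesterase Ces1e, Glyatl2 and the class Ib antigen RT1-S3 held below as well, with changes between -0.19 and 0.08. Hepatocyte products were low on both days too: 6 of 7 hepatocyte markers held below vehicle, their summed signal was 215219.6 to 277178 at 48 h and 232865 to 273795 at 24 h, which overlap, and it was 346936 to 423946 in 48 h vehicle livers. In whole liver, fewer cells of a type and less RNA per cell cannot be told apart.

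The proteasome, the protease complex that degrades ubiquitin-tagged proteins, was the group with the most members called. Of 26 members tested 11 rose and 2 fell (42.3% and 7.69%), beside 1.78% and 1.75% of all named genes, and the median change was 0.54. Without VPA 24 h replicate 1 the count was 1 higher and 1 lower, with a median of 0.41 and 22 of 26 above 0. Psmd1, a base subunit of the regulatory particle, had 9791, 10749, 10342 and 9317 in the 48 h livers, against 5409.6, 6563 and 6989 in the 24 h livers. The days did not overlap, and 48 h vehicle livers had 3799 to 4565 (48 h minus 24 h 0.68 ± 0.12, adjusted p = 0.00333, and adjusted p = 0.0468 without that array). The core subunit Psmb3 had 9018, 10347, 9744 and 9603 at 48 h and 5445, 6831 and 6642 at 24 h (0.62 ± 0.13, adjusted p = 0.00935, and adjusted p = 0.098 without that array). Psma5, an alpha ring subunit, rose by 0.50 ± 0.11 (adjusted p = 0.012, and 0.124 without that array). Against vehicle, 21 of 26 members were higher and 2 lower than vehicle at 48 h, against 14 higher and 0 lower at 24 h. For all 2578 named genes the counts were 528 higher and 459 lower at 48 h, and 510 higher and 397 lower at 24 h.

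The 2 members that fell were both inducible subunits of the immunoproteasome, which replace constitutive core subunits under interferon and shape peptides for antigen presentation. Psmb8 had 1345, 1555, 1629 and 1803 at 48 h, against 4123, 3118 and 3757 at 24 h, with no overlap. Its 24 h level lay within the vehicle range of 2497 to 4170.1, and its 48 h level lay below it (-1.21 ± 0.18, adjusted p = 0.000624, and -1.12 with adjusted p = 0.00953 without VPA 24 h replicate 1). Psmb9 had 801, 1177, 945 and 1306 at 48 h and 2288, 1840.3 and 1286 at 24 h, where the arrays overlapped (-0.76 ± 0.20, adjusted p = 0.0322, and 0.273 without that array). Both also belong to the interferon list, in which 3 of 14 fell and 0 rose, beside 1.75% and 1.78% of all named genes. The third was Irf3, a transcription factor of the interferon response, with 2082, 1937, 1767 and 1469 at 48 h and 2864, 2530.3 and 3112 at 24 h (-0.65 ± 0.15, adjusted p = 0.0124, and 0.0759 without that array). The interferon list had a median of -0.60, and 1 of 14 was called without VPA 24 h replicate 1. Cd74, the invariant chain of class II antigens, fell among the 12 largest falls (-1.18 ± 0.33, adjusted p = 0.0454, and 0.12 without that array). No macrophage marker was called of 5 tested, and their summed signal was 9275 to 12924 at 48 h and 11655 to 13863 at 24 h. None of 3 lymphocyte markers was called, and 7 of the 12 on the array averaged under 150 (Cd3d, Cd3g, Cd8a, Cd2, S100a8, S100a9 and Ccl5). The part of these cells in the falls was not tested.

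**Figure D3:**
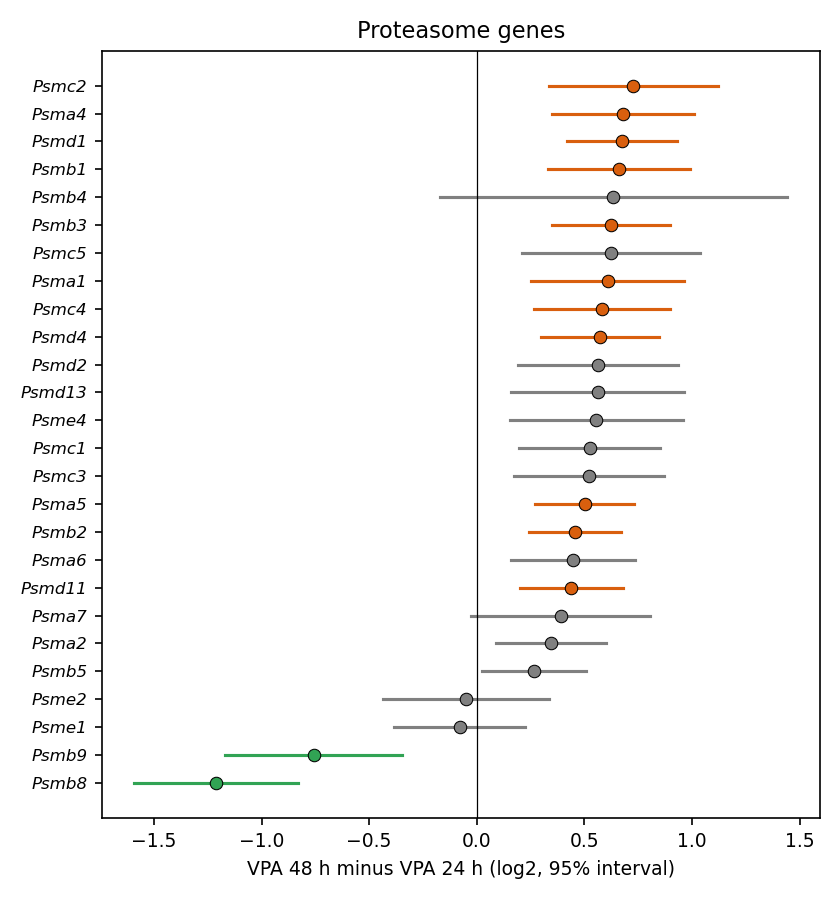
Change from VPA 24 h to VPA 48 h (x axis, log2) of the 26 proteasome genes tested, with 95% intervals. Orange marks the 11 genes that rose, green the 2 that fell (Psmb8 and Psmb9), and grey those not called.

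The promoter of Psmd1 is shown because Psmd1 was the proteasome gene still called as higher without VPA 24 h replicate 1. Sequences are from RefSeq on build GRCr8, 5′ to 3′ on the gene's strand, and cover the 250 bases before the annotated start. The Psmd1 stretch lies at chr9:94157721-94157970 on the plus strand. Capitals mark a match to TGACNNNGC, the core of the antioxidant response element, searched on both strands and found once, its first base 165 bases before the start.
Psmd1: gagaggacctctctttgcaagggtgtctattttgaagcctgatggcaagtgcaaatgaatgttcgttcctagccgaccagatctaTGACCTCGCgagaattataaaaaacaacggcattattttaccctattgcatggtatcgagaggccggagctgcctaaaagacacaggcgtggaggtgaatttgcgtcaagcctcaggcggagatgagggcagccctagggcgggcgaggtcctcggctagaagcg
These letters occurred in 4 of the 25 proteasome promoters that had an entry (Psmb2, Psmb5, Psmd1 and Psme4) and in 3373 of all 33469 promoters (10.1%). A match is a description of the letters only.

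Several detoxification enzymes rose between the days. Gstm5, a mu-class glutathione transferase, had 489, 794, 737 and 375 at 48 h, against 198, 51.0 and 189 at 24 h, and 19.7 to 69.8 in 48 h vehicle livers. It was at least 3.22-fold higher at 48 h than at 24 h (1.69 ± 0.23, adjusted p = 0.000142), and the change was 1.77 without VPA 24 h replicate 1 (adjusted p = 0.000711). Of 17 glutathione transferase and glucuronosyltransferase genes 3 rose and 0 fell, beside 1.78% and 1.75% of all named genes. Those other than Gstm5 were Gstm7 and Gsta4 (0.66 ± 0.18 and 0.54 ± 0.12). The count was 1 without VPA 24 h replicate 1, with an adjusted p of 0.259 for Gstm7 and 0.132 for Gsta4. Probe sets of this family may detect related transcripts. Of 12 NRF2 target and glutathione supply genes 2 rose and 0 fell, and both were called without that array (adjusted p of 0.0259 for Akr7a3 and 0.0498 for Gss). Akr7a3, the aflatoxin aldehyde reductase, had 10457, 9188, 9949.7 and 13999.8 at 48 h, against 4255, 5434 and 6109.9 at 24 h. The 24 h livers overlapped the vehicle range of 5189.6 to 8754, and all 48 h livers lay above it (1.05 ± 0.18, adjusted p = 0.00155). Gss, the glutathione synthetase, had 5100.0, 4983, 4613 and 4359 at 48 h and 2364, 2953 and 2919 at 24 h (0.80 ± 0.15, adjusted p = 0.00421). Of 15 inducible phase I enzymes 1 rose and 0 fell, and 0 were called without that array. It was Cyp2b15, a drug-metabolising cytochrome (0.78 ± 0.22, adjusted p = 0.0431), and a probe set of Cyp3a23-3a1 that was not the one of highest signal rose by 0.98 ± 0.22 (adjusted p = 0.0133), with adjusted p of 0.336 and 0.107 without VPA 24 h replicate 1.

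Several genes with low signals in vehicle livers rose between the days. A gene with vehicle means under the limit for testing was tested only if a treated group reached that limit. Fbp2 and Resp18 reached it only at 48 h, as did Fabp3 and Gstm5, given above. For these genes the filter largely fixed the direction of the change in advance. They are thus no measure of how often genes with low vehicle signals rose. Fbp2, the muscle isoform of fructose bisphosphatase, had 1157, 1190.0, 947 and 918 at 48 h, against 286, 488 and 336 at 24 h (1.54 ± 0.24, adjusted p = 0.000829, and 0.0147 without VPA 24 h replicate 1). Its vehicle livers at 48 h lay at 188 to 248. Cyp17a1, the steroid 17-alpha-hydroxylase, had 1853, 2730.4, 4000.1 and 1479 at 48 h, against 349.9, 395 and 963 at 24 h (2.20 ± 0.48, adjusted p = 0.0111, and 0.101 without that array). Resp18, a secretory granule protein of endocrine cells, had 946, 2548, 1570.3 and 1062 at 48 h and 335, 149 and 762 at 24 h (at least 4.20-fold, adjusted p = 0.0167, and 0.0943 without that array). Hspb1, the small heat shock protein, had 5834, 5286, 4448 and 6661 at 48 h and 1538, 2926 and 1220.0 at 24 h by 1 probe set (1.64 ± 0.42, adjusted p = 0.0283, and 0.152 without VPA 24 h replicate 1). By the probe set of highest mean signal it did not pass (1.05 ± 0.38, adjusted p = 0.142), and none of the 13 heat shock and chaperone genes was called by that measure. Tspan3, a tetraspanin, rose by 1.00 ± 0.20 (adjusted p = 0.00543, and 0.0709 without that array).

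Spink1, a secreted trypsin inhibitor, went from a mean below vehicle at 24 h to one above it at 48 h. It had 1255, 883, 1556 and 1234 at 48 h, against 348, 222 and 62.7 at 24 h, and 296 to 586 in 48 h vehicle livers. Thus the 48 h livers lay above all 48 h vehicle livers, while the 24 h livers overlapped them. The rise was at least 5.34-fold (2.42 ± 0.40, adjusted p = 0.00137). It was 2.73 without VPA 24 h replicate 1 (adjusted p = 0.00232). Of 6 pancreas markers, the digestive enzymes Prss1, Cpa1 and Ctrb1 averaged under 150, and the other 3 were tested. The summed signal of the 6 was 2445 to 3088 at 48 h and 3142 to 3825 at 24 h, against 5070 to 6103 in 48 h vehicle livers. The part of pancreatic RNA in the Spink1 signal was not tested. Il1a, an inflammatory cytokine, had 1387, 1033, 1087 and 959.9 at 48 h and 578, 509.8 and 560.5 at 24 h (1.01 ± 0.25, adjusted p = 0.0228), with 48 h vehicle livers at 545 to 1068. It was the only one called of 12 chemokine and inflammatory genes, beside 1.78% of all named genes that rose and 1.75% that fell. Its adjusted p was 0.0943 without that array.

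**Figure D4:**
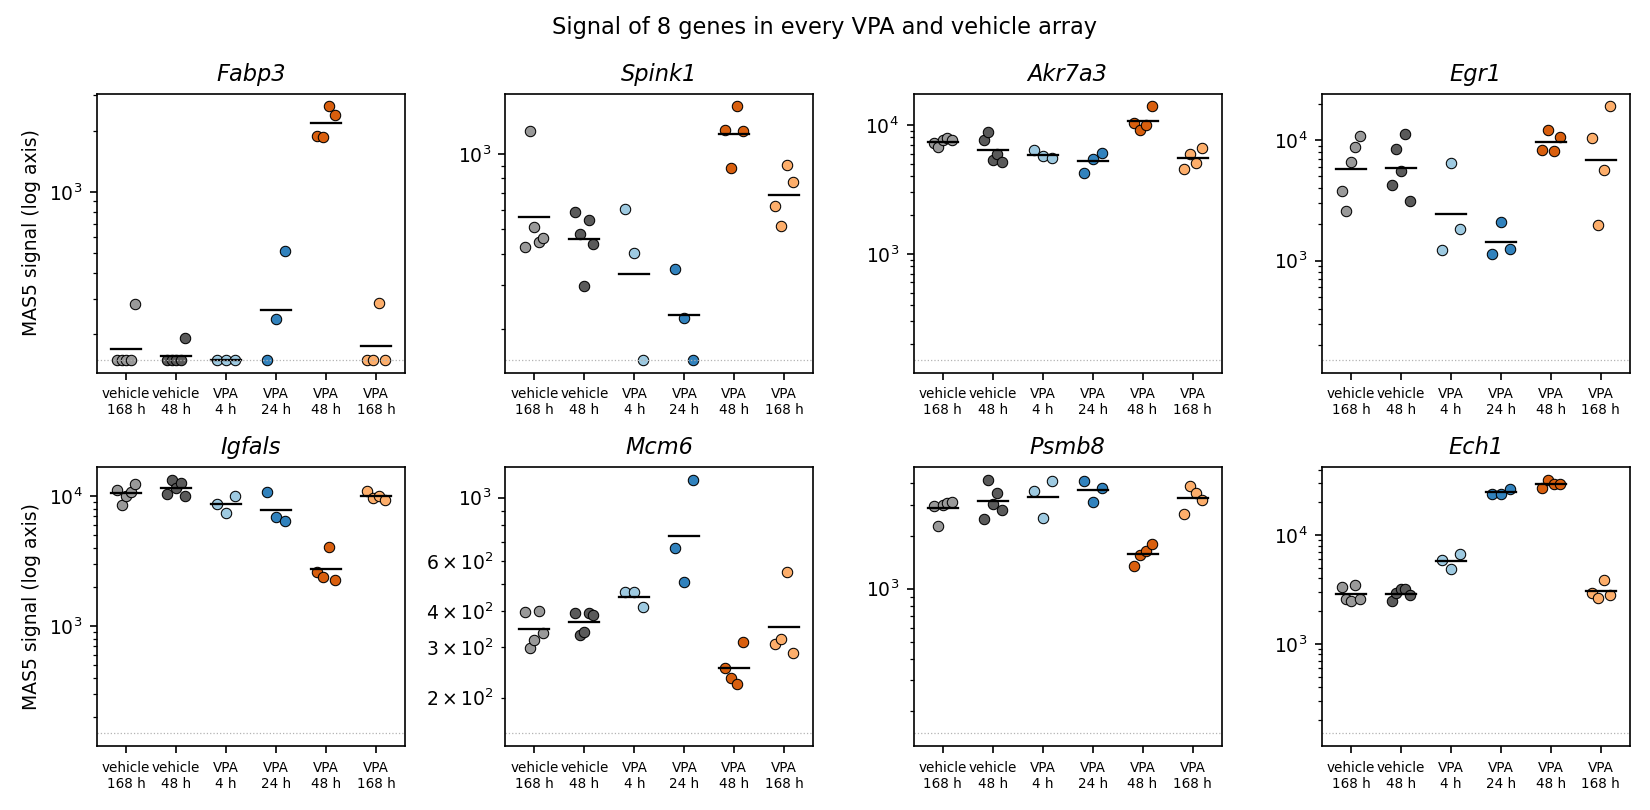
MAS 5.0 signal (y axis, log scale, values under 150 drawn at the dotted line at 150) of 8 genes in each array of the vehicle and VPA groups (x axis). Points are arrays and bars are geometric means. Fabp3 and Spink1 are highest at 48 h, Igfals and Psmb8 lowest at 48 h, Egr1 is lowest at 24 h, Mcm6 is highest at 24 h, and Ech1 holds its level from 24 h to 48 h.

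Some genes in the list of growth hormone dependent and male-specific liver genes fell between the days. In this list 0 of 25 rose and 5 fell, beside 1.78% and 1.75% of all named genes. The list had a median change of -0.22, and 1 member was called without VPA 24 h replicate 1. The probe set of Cyp2c12, known as female-specific, had a lower signal at 48 h as well (given below). It is 1 probe set that may detect other Cyp2c transcripts, so no statement is made of female-pattern genes. Igfals, the acid-labile subunit that keeps insulin-like growth factors in the circulation, had 2635, 2404, 4053 and 2277 at 48 h, against 10748, 6948 and 6416 at 24 h. The groups did not overlap, and 48 h vehicle livers had 10068 to 13439 (48 h minus 24 h -1.50 ± 0.19, adjusted p = 5.08e-05, and -1.27 with adjusted p = 0.000778 without that array). Ghr, the growth hormone receptor, had 4114, 4739, 3909 and 3817 at 48 h, against 5959, 5599 and 7527 at 24 h (-0.61 ± 0.16, adjusted p = 0.0322). Car3, a carbonic anhydrase of male rat liver, had 1049, 563, 1031 and 449 at 48 h, against 1716, 2727 and 1207 at 24 h, and 4056 to 15798 in 48 h vehicle livers (-1.30 ± 0.36, adjusted p = 0.0454). Without VPA 24 h replicate 1 the adjusted p was 0.104 for Ghr and 0.163 for Car3.

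Several sulfotransferase probe sets fell between the days. The sulfotransferase probe set labelled Sult2a1 with the highest signal had 7763, 6361, 20752 and 11222 at 48 h, against 24742, 22209 and 33008 at 24 h (-1.34 ± 0.31, adjusted p = 0.0149). The 24 h livers overlapped the vehicle range of 22569.7 to 32895, and all 48 h livers lay below it. Without VPA 24 h replicate 1 its adjusted p was 0.0719, while a second Sult2a1 probe set fell by 1.64 ± 0.31 (adjusted p = 0.00465, and 0.0182 without that array). Sult2a6 had 2223, 2763, 6221 and 3202 at 48 h, against 11108, 6507 and 18993 at 24 h (-1.74 ± 0.37, adjusted p = 0.0107, and 0.0609 without that array). Sult1c2a, of another sulfotransferase family, had 194, 259, 308 and 489.6 at 48 h, against 865, 820.3 and 1476 at 24 h (-1.78 ± 0.39, adjusted p = 0.0119, and 0.0468 without that array). The Sult2a probe sets may detect the same family of hydroxysteroid sulfotransferases and are not independent. Cyp2c12, known as a female-specific steroid hydroxylase in rat, had 3086, 1240.3, 438 and 2169 at 48 h, against 9033, 3921 and 10968 at 24 h (-2.40 ± 0.67, adjusted p = 0.0454, and 0.211 without that array). Its vehicle livers spread from 1185 to 12299, and the probe set may detect other Cyp2c transcripts.

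Several other genes for secreted and surface proteins of hepatocytes fell between the days. C9, the pore-forming component of complement, had 5064, 4471, 4855 and 5459 at 48 h, against 8737, 8366 and 9557 at 24 h, and 19303 to 24673 in 48 h vehicle livers. Both days lay below vehicle and apart from each other (-0.84 ± 0.11, adjusted p = 5.2e-05, and 0.000711 without VPA 24 h replicate 1). In the list of complement and coagulation genes 2 of 19 fell, C9 and the anticoagulant Proc (-0.47 ± 0.13, adjusted p = 0.0392), and 0 rose, with a median of -0.35. Of all named genes 1.75% fell and 1.78% rose. Without that array C9 alone was called, and the adjusted p of Proc was 0.219. Asgr2, a subunit of the asialoglycoprotein receptor, had 1451, 1167, 2264 and 1381 at 48 h, against 4097, 2783 and 4228 at 24 h (-1.26 ± 0.20, adjusted p = 0.000829). Dio1, which converts thyroxine to its active form, had 1136, 1421, 1736 and 954 at 48 h, against 2518, 3857 and 2637 at 24 h (-1.20 ± 0.24, adjusted p = 0.00529). Both were called without VPA 24 h replicate 1, with adjusted p of 0.012 for Asgr2 and 0.0163 for Dio1. Apoa2, an apolipoprotein of high-density lipoprotein, fell by 1.06 ± 0.21 (adjusted p = 0.00503, and 0.0553 without that array). Mug1, a protease-binding plasma protein, had 6309, 5832, 7038 and 2202 at 48 h and 21034, 14017 and 8239 at 24 h (-1.46 ± 0.39, adjusted p = 0.0387, and 0.276 without that array). Of 26 acute phase proteins, 2 fell (Mug1 and Itih4), 0 rose and 13 held, and 0 were called without VPA 24 h replicate 1. Itih4 fell by 0.32 ± 0.09 on the log2 scale (adjusted p of 0.172 without that array) and met the limit for a held level as well.

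Cyp51 and Msmo1 of sterol synthesis fell between the days. Of 14 cholesterol synthesis and uptake genes 0 rose and 2 fell between the days, beside 1.78% and 1.75% of all named genes. The list had a median of -0.50 and 1 member above 0, and 0 were called without VPA 24 h replicate 1. Against vehicle 0 of the 14 were higher and 10 lower at 48 h, and 0 were higher and 7 lower at 24 h. For all 2578 named genes the counts were 528 higher and 459 lower at 48 h, and 510 higher and 397 lower at 24 h. Cyp51, the lanosterol demethylase, had 1647, 1411, 1586 and 899 at 48 h, against 3566, 2966 and 2711 at 24 h, and 3603 to 10299 in 48 h vehicle livers (-1.18 ± 0.27, adjusted p = 0.0138, and 0.107 without VPA 24 h replicate 1). Msmo1, the methylsterol oxidase of the next steps, had 1628, 1888, 2087 and 1128 at 48 h, against 4391, 3721 and 2142 at 24 h (-0.996 ± 0.27, adjusted p = 0.0387, and 0.276 without that array). Probe sets of Fdps and Acat2 that were not counted in this list also fell (-0.68 and -1.72, adjusted p = 0.0161 and 0.0437). Without that array their adjusted p was 0.172 and 0.276. None of 9 lipogenesis genes was called. Srebf1, their transcription factor, had 616, 715, 712 and 545 at 48 h and 2799.7, 984 and 676 at 24 h (-0.94 ± 0.29, adjusted p = 0.0774), and the change was -0.34 without VPA 24 h replicate 1, the highest 24 h array.

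Some cell cycle genes fell between the days. In the cell cycle and DNA replication list 9 of 18 were higher than vehicle at 24 h and 0 lower, against 3 higher and 1 lower at 48 h. For all 2578 named genes the counts were 510 higher and 397 lower at 24 h, and 528 higher and 459 lower at 48 h. Between the days 0 of the 18 rose and 4 fell, beside 1.78% and 1.75% of all named genes. The list had a median change of -0.54, and 1 member was called without VPA 24 h replicate 1. Mcm6, a subunit of the replicative helicase, had 254, 235, 224 and 312 at 48 h, against 667, 507 and 1155 at 24 h, and 332 to 396 in 48 h vehicle livers. All 24 h livers lay above and all 48 h livers below those vehicle livers (-1.52 ± 0.24, adjusted p = 0.000829, and -1.59 with adjusted p = 0.0047 without that array). Dut, which clears dUTP, had 437, 324, 329 and 264 at 48 h and 638, 474 and 706 at 24 h (-0.84 ± 0.23, adjusted p = 0.0427). H2az1, a histone variant, had 2543, 2952, 2325 and 2607 at 48 h and 4277, 4060.3 and 4649.7 at 24 h, with 48 h vehicle livers at 1935 to 3535 (-0.73 ± 0.20, adjusted p = 0.0399). Ccng1, a p53-responsive cyclin, had 658, 1030.4, 655 and 619 at 48 h and 1262, 1186 and 1143 at 24 h (-0.72 ± 0.18, adjusted p = 0.0228). The adjusted p without VPA 24 h replicate 1 was 0.198 for Dut, 0.152 for H2az1 and 0.134 for Ccng1. Beside these genes, probe sets of the cyclins Ccne1 and Ccnd1 fell as well (-0.90 and -0.84, adjusted p = 0.0305 and 0.0270). Without VPA 24 h replicate 1 their adjusted p was 0.0468 and 0.107. Ccnd1 averaged 814 at 48 h, still higher than the 365 of 48 h vehicle livers (adjusted p = 3.1e-05, limma). Ccne1 averaged 326 at 48 h, against 400 in those vehicle livers (adjusted p = 0.225). Of 19 cytoskeleton genes 2 fell and 0 rose, both tubulins, and 1 was called without that array. Tubb5 had 3757, 4535, 4016 and 3612 at 48 h and 6143, 8459 and 5483 at 24 h (-0.73 ± 0.16, adjusted p = 0.012, and 0.0468 without that array), still above the 2229 to 2866 of 48 h vehicle livers. Tuba1b fell by 0.72 ± 0.19 (adjusted p = 0.0322, and 0.206 without that array).

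Egr1, an immediate early transcription factor, was low on day 1 and back at the vehicle level on day 2. It had 8347, 12106, 8101 and 10571 at 48 h, against 1127, 2110.4 and 1247 at 24 h, and 3139 to 11361 in 48 h vehicle livers. The 24 h livers lay below all 48 h vehicle livers, while the 48 h livers overlapped them (48 h minus 24 h 2.75 ± 0.63, adjusted p = 0.0141, and 0.104 without VPA 24 h replicate 1). It was the only one called of 19 immediate early genes and MAP kinase phosphatases. For the counts in this paragraph, 1.78% of all named genes rose and 1.75% fell between the days. Tdo2, which starts tryptophan breakdown, had 20855, 23091, 21742 and 20751 at 48 h and 12146, 14880.2 and 13779 at 24 h (0.67 ± 0.19, adjusted p = 0.0438), and its vehicle livers lay at 15790.2 to 23046. Gls2, the liver glutaminase, rose by 0.55 ± 0.14 (adjusted p = 0.0335), and these were the 2 of 28 amino acid and urea cycle genes called, with adjusted p of 0.233 for Tdo2 and 0.187 for Gls2 without that array. Gys2, the liver glycogen synthase, rose by 0.58 ± 0.16 (adjusted p = 0.0386), 1 of 20 genes of glucose metabolism, and without that array 0 of 20 were called (adjusted p of 0.276 for Gys2).

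The upstream stretches of Egr1 and Mcm6 are shown because these genes moved in opposite directions between the days. Egr1 lies at chr18:26736828-26737077 on the plus strand, and its capitals mark 2 matches to the CArG box consensus, the core of the serum response element, with first bases 105 and 83 before the start. Mcm6 lies at chr13:42404353-42404602 on the minus strand, and its capitals mark the reverse complement of TTTCGCGC, an element of E2F factors, 135 bases before the start.
Egr1: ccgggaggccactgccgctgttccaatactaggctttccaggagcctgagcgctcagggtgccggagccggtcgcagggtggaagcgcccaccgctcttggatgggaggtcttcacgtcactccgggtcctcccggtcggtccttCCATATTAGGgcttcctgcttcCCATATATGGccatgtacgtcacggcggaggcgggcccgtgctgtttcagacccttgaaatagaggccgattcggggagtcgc
Mcm6: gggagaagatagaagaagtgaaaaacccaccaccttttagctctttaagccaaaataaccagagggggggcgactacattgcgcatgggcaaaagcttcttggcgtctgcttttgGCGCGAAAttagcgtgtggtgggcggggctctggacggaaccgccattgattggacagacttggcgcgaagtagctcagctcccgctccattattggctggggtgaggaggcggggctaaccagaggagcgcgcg
Searched on both strands, the CArG box consensus was found in 501 of 33469 promoters (1.497%) and in 4 of 13 immediate early and phosphatase promoters, Egr1, Dusp5, Klf6 and Zfp36. Of the other forms searched, the exact letters of the first Egr1 match were found in 10 of 33469 (0.0299%) and in 1 of those 13, and a looser form that fixed the outer C and G pairs and the central AT was found in 1317 of 33469 (3.93%) and in 2 of the 13. The counts are a description, since the form was settled after the sequences had been seen. TTTCGCGC was found in 83 of 33469 (0.248%) and in 2 of 16 cell cycle promoters, Mcm6 and Mcm7.

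Large parts of the measured liver programme showed no call between the days. None of 39 cytosolic ribosomal protein genes and none of 46 oxidative phosphorylation genes was called, with medians of 0.00 and 0.01. No gene was called among 11 of bile acid synthesis and transport, 12 of the integrated stress response, 16 endoplasmic reticulum chaperones, 12 of the methionine cycle, 8 listed histones and chromatin factors, 7 of the circadian clock and 19 nuclear receptors and liver transcription factors. The histone variants H2az1, given above, and H2ax, named after its value was seen, are not in the chromatin list, and H2ax fell (-1.20 ± 0.24, adjusted p = 0.00607, and 0.0473 without VPA 24 h replicate 1). A missing call is not evidence of an equal level. Psat1, a serine synthesis gene of the stress response, had 967, 1026, 319 and 681 at 48 h and 2069, 1698 and 711 at 24 h (-0.99 ± 0.39, adjusted p = 0.191). Gadd45a, a growth arrest gene, had 4173, 5789.8, 3378 and 8302 at 48 h and 2775, 1833 and 2899 at 24 h, without overlap (1.06 ± 0.38, adjusted p = 0.136).

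**Figure D5:**
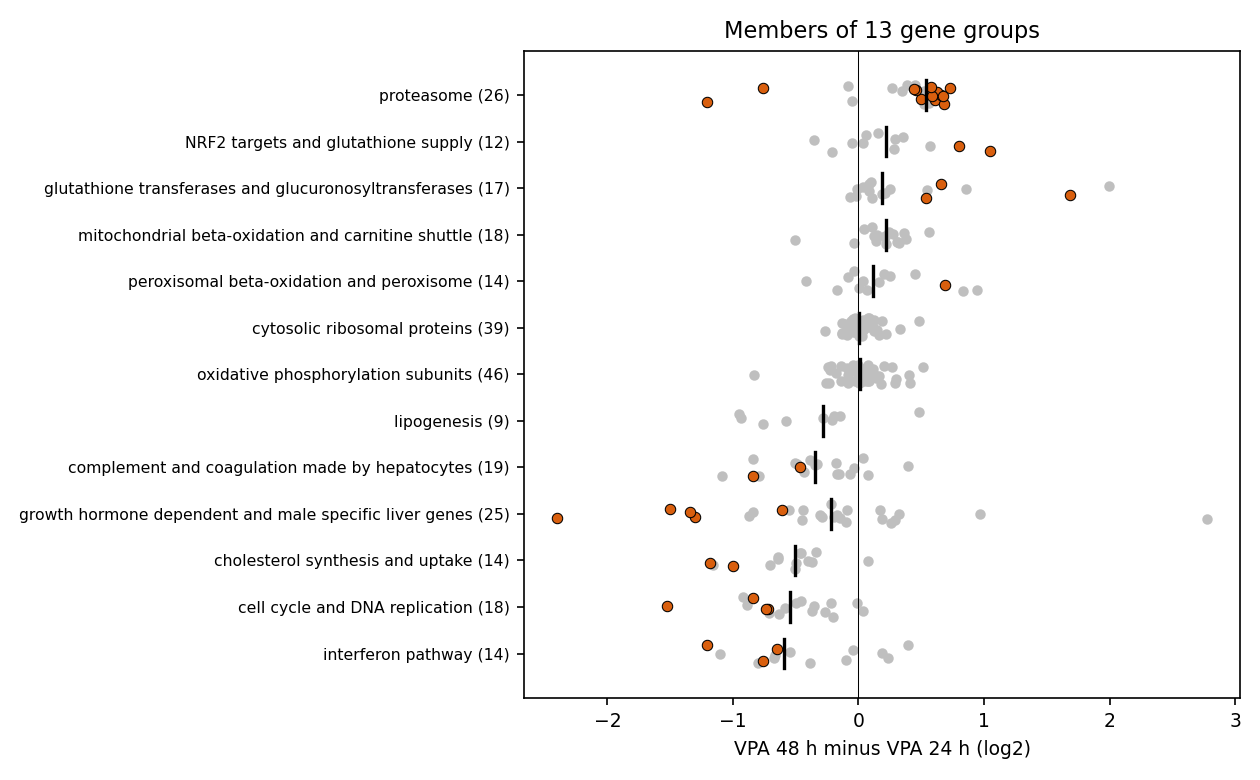
Change from VPA 24 h to VPA 48 h (x axis, log2) of the members of 13 gene groups (y axis, number tested in brackets). Points are genes, orange where called, and black bars are medians. The proteasome has its median at 0.54 with Psmb8 and Psmb9 far below 0, while ribosomal proteins and oxidative phosphorylation lie around 0.

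Haemoglobin beta genes fell between the days. Hbb fell by 1.02 and Hbb-b1 by 0.94 on the log2 scale (adjusted p = 0.0122 and 0.0119, and 0.104 and 0.0933 without VPA 24 h replicate 1), and their probe sets may detect the same transcripts. The summed signal of the 2 erythrocyte markers on the array, Hbb and Alas2 of erythroid haem synthesis, was 5964 to 11842 at 48 h and 12846 to 17170 at 24 h, against 19694 to 41892 in 48 h vehicle livers, and Hbb was the one called. Of 8 stellate cell and matrix markers 1 was called lower (Col3a1, adjusted p of 0.201 without that array), and their summed signal of 22857 to 30358 at 48 h overlapped the 23222 to 27125 at 24 h. Of 3 pancreas markers tested 1 was called lower (Amy2a3, adjusted p of 0.0662 without that array). No marker of endothelium, bile duct or fat was called. Of all named genes 1.75% fell and 1.78% rose between the days. The part of blood content in the changes above was not tested.

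To see whether these day 2 changes differed from those after another compound, the change from 24 h to 48 h was compared between VPA and DEHP, a plasticizer that also activates PPARalpha, in a fit of all 76 individual arrays. The 2 sides share no array. Of 4503 probe sets 39 differed (0.866%), 21 with the more positive change after VPA (0.466%) and 18 with the more negative (0.400%). In the same fit 80 probe sets differed between 48 h and 24 h after VPA (1.78%) and 41 after DEHP (0.911%). Fabp3, given above for VPA, had 108, 109.8, 100.2, 151 and 95.9 after DEHP at 48 h and 249, 175 and 98.0 at 24 h. Its change was 3.04 after VPA and -0.31 after DEHP, a difference of 3.36 ± 0.49 (adjusted p = 7.75e-06). This difference was called under all 20 alternatives.

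Trib3, a pseudokinase of the stress response, had 861, 2901, 430.1 and 1634 after VPA at 48 h and 697, 806 and 469 at 24 h, which overlapped. After DEHP it had 424, 251, 368, 610.1 and 513 at 48 h and 1140.0, 4906 and 2790.2 at 24 h, which did not overlap. The difference of the changes was 3.44 ± 0.84 (adjusted p = 0.0241). Igf1, by 1 of its probe sets, had 629, 561, 2809.9 and 2306 after VPA at 48 h and 7415, 4809 and 5086 at 24 h, against 2086, 1117, 2867, 3851 and 2949.5 after DEHP at 48 h and 1162, 3481 and 966 at 24 h. The difference was -2.80 ± 0.63 (adjusted p = 0.0111). In the fit of the valproate study alone, 3 of the 5 Igf1 probe sets tested were called (the one shown with adjusted p = 0.0167, and 0.124 without VPA 24 h replicate 1), and the one of highest signal was not (-0.55). The 3 Sult2a probe sets with the largest differences gave -2.53 (Sult2a2), -2.19 (Sult2a6) and -1.97 (Sult2a1), and Cp, the copper-binding ceruloplasmin, gave -2.25. Lrrc59, a membrane protein of the endoplasmic reticulum, gave 1.18 ± 0.25 (adjusted p = 0.00489), Phgdh of serine synthesis 1.17 and Rdh16, a retinol dehydrogenase, 2.11. Without VPA 24 h replicate 1 the count of differing probe sets was 11, and of these 10 genes Fabp3 and Lrrc59 were called.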

How the data were processed

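Liver RNA of 94 samples was measured on Affymetrix RG_U34A arrays. Per the labels, total RNA was extracted with RNA STAT-60, about 10 µg was labelled, and the deposited intensities are MAS 5.0 signals that the authors scaled to 1500. Scanner settings files gave only the scan day. The probe sets were named through the platform annotation: 7018 carried 1 symbol, 308 several and 1473 none, and 6994 matched a RefSeq gene identifier.

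Signals were floored at 150 and log2 transformed. Control probe sets (59) were left out, and 4269 with a mean of at least 500 in 1 or more groups were fitted in R 4.3.3 by limma 3.58.1, using lmFit and a trended eBayes prior, over the 24 individual VPA and VPA vehicle arrays. The comparison with DEHP used all 76 individual arrays and 4503 probe sets. VPA 48 h was set against its 48 h vehicle and VPA 24 h against the 48 h and 168 h vehicle groups, weighted equally. Calls needed a Benjamini-Hochberg adjusted p under 0.05. Per gene the probe set of highest mean signal represented its list.

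The animals, the 32 gene lists and the 10 marker lists were chosen with earlier results of these data known. Named genes were the 12 largest rises and falls (mean of at least 1000 in the higher group, no overlap), up to 4 called members per list, or up to 2 of smallest p where none was called, 8 held genes per direction and 5 differences from DEHP per direction, not all of which are printed. Replicate numbers mark different animals. Deviations of arrays with the same number correlated at 0.147, 0.147 and -0.0800, so the numbers were not taken as pairs.

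The fit was tested on simulated data: of 200 changed among 4269 probe sets in the comparison of VPA 48 h with VPA 24 h, 35.8% were recovered at 1.5-fold, 77.6% at 2-fold and 92.4% at 4-fold, with 7 false calls. Errors were drawn independently for each probe set, so an array that deviates over many probe sets at once was not simulated. The 7 false calls are thus no estimate of the false calls in the real comparison. Alternatives covered scaling, floor, filter, variance prior, array weights, blocks, arrays in the fit and arrays left out. A random block for scan day and a covariate for the 3' to 5' ratio were chosen after seeing the data. Figures were made with Python 3.11.15, pandas 2.3.3 and matplotlib 3.10.9.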

Additional observations from a re-analysis of the deposited data

Results flagged for a closer look

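Among 101 quantities examined in the 4 VPA 48 h arrays (the 100 named probe sets and the spread around vehicle), 4 had 1 array far from the other three by Dixon's ratio at its 95% critical value, and chance alone gives about 1 in 20. Replicate 3 had a Gstt2 signal of 1106.5, against 1529 to 1574 in the others. Replicate 4 had a Mug1 signal of 2202, against 5832 to 7038. Replicate 2 had a Ccng1 signal of 1030.4, against 619 to 658. Replicate 3 had a Gsta4 signal of 13158, against 12209.7 to 12243.

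Differences between the VPA and the DEHP change from 24 h to 48 h, tested as an interaction with limma, were called for 10 named probe sets. They were positive for Trib3 (3.44), Fabp3 (3.36), Rdh16 (2.11), Lrrc59 (1.18) and Phgdh (1.17). They were negative for Igf1 (-2.80), Sult2a2 (-2.53), Cp (-2.25), Sult2a6 (-2.19) and Sult2a1 (-1.97).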

How the results depend on the processing

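The count of 166 probe sets between VPA 48 h and VPA 24 h was 31 (23 higher, 8 lower) in a fit of only the 7 arrays and 80 in the fit of all 76. Leaving out 1 array gave 37 to 165, and the other alternatives gave 114 to 206. Replicate numbers did not pair the arrays, and a replicate block gave 114. Scan day as a fixed block, which uses up the arrays alone on their day (VPA 24 h replicate 3 and vehicle 168 h replicate 3), gave 133, while as a random block it gave 175. The 39 differences from DEHP became 73 under quantile normalization and 77 with a floor of 300, and 11 to 48 with 1 array left out. Lower counts by over 1.5 times came without VPA 24 h replicate 1 (11), DEHP 48 h replicate 5 (20), VPA 48 h replicate 1 (22), DEHP 24 h replicate 3 (23), and DEHP 48 h replicate 3 or VPA 48 h replicate 2 (24 each). Held levels numbered 605 with a limit of 2-fold and 340 to 434 with 1 array left out. Counts against vehicle were 1513 to 1666 at 48 h and 1140 to 1609 at 24 h with 1 array left out. No named gene reversed while called. The cause of these shifts was not tested. Signals near 150 limit what can be said of low genes.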
